A study of Homo sapiens with 13 samples.

Results

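The HOX genes are the homeobox genes of the 4 human clusters, HOXA on chromosome 7, HOXB on chromosome 17, HOXC on chromosome 12 and HOXD on chromosome 2. They were taken as every array probe whose Agilent gene symbol consists of HOX, a cluster letter from A to D and a number, which gave 43 probes of 39 genes. Of these genes, 36 passed a filter on dim probes and were measured, among 28564 features in all: 10 of 11 in the A cluster, 9 of 10 in B, 9 of 9 in C and 8 of 9 in D. HOXA11, HOXB1 and HOXD4 did not pass, and no value is given for them.

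HOX proteins are transcription factors that give cells along the body axis their position. Within a cluster the genes stand in the order in which they are used from head to tail, so that low paralog numbers act in the hindbrain and neck and high ones in the trunk end, limbs and genital tract. The clusters are a classic target of opposing chromatin systems, Polycomb proteins that keep them silent and trithorax proteins that keep them active, and cultured lines retain parts of the pattern of the tissue they came from. G9a (gene EHMT2) and its partner GLP methylate histone H3 at lysine 9, a mark of silent chromatin, and WIZ is a zinc finger protein found in complex with them.

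RNA came from HEK293T cells, a human line of embryonic kidney origin with the SV40 large T antigen. Cells treated with the G9a and GLP inhibitor UNC0638 (1 µM, 48 h) were set against cells given its solvent DMSO for as long, in 5 biological replicates on 7 arrays. Cells transfected with WIZ siRNA were set against cells with control siRNA at 72 h (2 biological replicates on 4 arrays), and likewise cells with G9a siRNA (2 biological replicates on 2 arrays). Each of the 13 Agilent 8x60K arrays held a treated and a control RNA in different dyes, Cy3 and Cy5. Replicates 1 and 2 of UNC0638 and of WIZ siRNA were hybridised in both dye orientations, and all the other arrays with the treated RNA in Cy5 alone. A single line is no model of the body axis, siRNA leaves part of its target, and whether both siRNAs were set against the same control RNA is not stated in the labels.

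Sequences before the transcription start were available for 20 of the 39 genes. Those of the highest and the lowest called gene of a comparison that had an entry are shown, because these genes carry changes reported below. Each is the 250 bases upstream of the start on its own strand, 5′ to 3′, from the RefSeq promoter table (GRCh38.p14). Capitals mark CG dinucleotides, the sites of DNA methylation.
HOXA3 (chr7:27152584-27152833, minus strand): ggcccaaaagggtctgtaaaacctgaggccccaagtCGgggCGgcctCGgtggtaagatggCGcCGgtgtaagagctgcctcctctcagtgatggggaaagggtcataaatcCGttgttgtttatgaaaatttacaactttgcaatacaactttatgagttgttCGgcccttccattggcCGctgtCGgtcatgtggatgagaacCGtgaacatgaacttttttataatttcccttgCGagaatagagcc
HOXA6 (chr7:27147775-27148024, minus strand): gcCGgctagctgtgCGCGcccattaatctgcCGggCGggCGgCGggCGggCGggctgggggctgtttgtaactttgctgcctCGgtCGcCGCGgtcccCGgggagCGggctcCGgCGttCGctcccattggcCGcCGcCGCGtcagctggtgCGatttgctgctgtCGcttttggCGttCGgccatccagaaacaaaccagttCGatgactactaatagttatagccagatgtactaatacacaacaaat
HOXA10 (chr7:27179862-27180111, minus strand): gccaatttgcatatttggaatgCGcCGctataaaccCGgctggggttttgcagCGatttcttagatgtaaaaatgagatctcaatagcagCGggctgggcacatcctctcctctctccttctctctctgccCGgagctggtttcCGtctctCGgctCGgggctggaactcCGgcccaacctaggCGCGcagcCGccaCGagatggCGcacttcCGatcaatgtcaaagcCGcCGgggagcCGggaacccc
HOXD11 (chr2:176107030-176107279, plus strand): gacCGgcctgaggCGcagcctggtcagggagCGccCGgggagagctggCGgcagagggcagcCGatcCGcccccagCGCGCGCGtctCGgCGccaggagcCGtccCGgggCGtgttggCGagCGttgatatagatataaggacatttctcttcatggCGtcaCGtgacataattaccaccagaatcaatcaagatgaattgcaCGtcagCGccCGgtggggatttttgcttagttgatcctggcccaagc
These windows held 11, 27, 19 and 23 CG dinucleotides in the order printed. As many or more were found in 17.3% of 27305 promoters of the same length for HOXA6, 34.3% for HOXA10 and 25.4% for HOXD11, and the count of HOXA3 was the median of all promoters. Over the 20 HOX promoters the CG count had a median of 20.5 (range 4 to 40), against 11 over all promoters, while the GC content was much the same (medians 59% and 58%). No methylation was measured, and the count describes the sequence alone. By its coordinates the HOXA3 window lies upstream of that of HOXA6, so it belongs to a distant start of HOXA3. Whether the RNA measured by the HOXA3 probe begins there was not tested.

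The probes had to tell near relatives apart, since all HOX genes share the homeobox. The HOXA5 probe, whose gene gave calls in opposite directions below, is 60 bases at chr7:27181547-27181606 on the minus strand of build 37.1, the build of the array files. Its letters code for part of the homeobox. Capitals mark the longest run it shared with any of 29 other HOX probes, 8 bases in common with HOXD10. The probe was compared with other probes and not with transcripts, so its binding to RNA of other HOX genes was not tested.
HOXA5 probe: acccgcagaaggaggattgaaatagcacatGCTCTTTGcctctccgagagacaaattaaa
The HOXC4 probe is listed for HOXC6 as well, so its values cannot be given to 1 of the 2 genes. By probe position the clusters span chr7:27140350-27236733 (A), chr17:46607916-46802203 (B), chr12:54340034-54428167 (C) and chr2:176965341-177055431 (D) on build 37.1.

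The median spot brightness was 194 to 415 in Cy3 and 151 to 638 in Cy5, and 47.6% to 90.8% of probes were well above background in treated RNA, against 57.2% to 92.2% in control RNA. The smallest Cy3 background pixel SD on an array split the 13 into set 1 (UNC0638 replicates 1 and 2 and WIZ siRNA, 8 arrays) and set 2 (UNC0638 replicates 3 to 5 and G9a siRNA, 5 arrays). WIZ mRNA had log2 ratios of -2.33, -2.01, -2.20 and -1.93 on the WIZ siRNA arrays, and EHMT2 -1.67 and -1.65 on the G9a siRNA arrays. All 9 HEK293 line markers were measured, among them LHX1, an embryonic kidney regulator. Of the markers of other cell types, CD68 (blood), COL1A1 (fibroblasts), APOA1 (liver) and ACTA1 (muscle) were above background in control RNA on all 13 arrays, CD3E on 11 and PTPRC on 8 (blood), MYH7 (muscle) on 7, COL3A1 on 4 and DCN on 2 (fibroblasts), and ALB (liver) on 3. Their part in the results was not tested. One UNC0638 replicate stood apart. Over all features replicate 3 had correlations of 0.876 and 0.843 with the G9a siRNA replicates, against 0.164, 0.176, 0.664 and 0.135 with UNC0638 replicates 1, 2, 4 and 5. EHMT2 itself had a log2 ratio of -0.36 there. Replicate 4 had 0.501 and 0.499 with the G9a siRNA replicates, against 0.343, 0.208 and 0.239 with UNC0638 replicates 1, 2 and 5. What lies behind this likeness was not tested. Counts of HOX calls are given without replicate 3 as well, but means of single genes and the gene lists are not.

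Across the 36 measured genes, the HOX family as a whole lay slightly below control under UNC0638, was mostly above control under WIZ siRNA, and moved in both directions under G9a siRNA. Values are given on the log2 scale as treated over control, where -1 means 50% of control, and the average of a dye-swapped pair counts as 1 replicate. In bulk RNA, fewer cells that express a gene and less RNA per cell cannot be told apart. Genes were called by limma's moderated test at a Benjamini-Hochberg adjusted p below 0.05 over all 28564 features. The shares of all features printed below as background belong to this main fit and not to the alternative fits. They are at the adjusted p, and no share was computed at an unadjusted p below 0.05. Counts at that cut, for HOX genes and for the gene lists, therefore stand without a background. The median HOX ratio was -0.13 under UNC0638, 0.22 under WIZ siRNA and -0.09 under G9a siRNA, where the medians of all features were -0.01, 0.01 and -0.01. UNC0638 had 7 genes above 0 and 29 below, WIZ siRNA 27 and 9, and G9a siRNA 15 and 21.

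**Figure D1:**
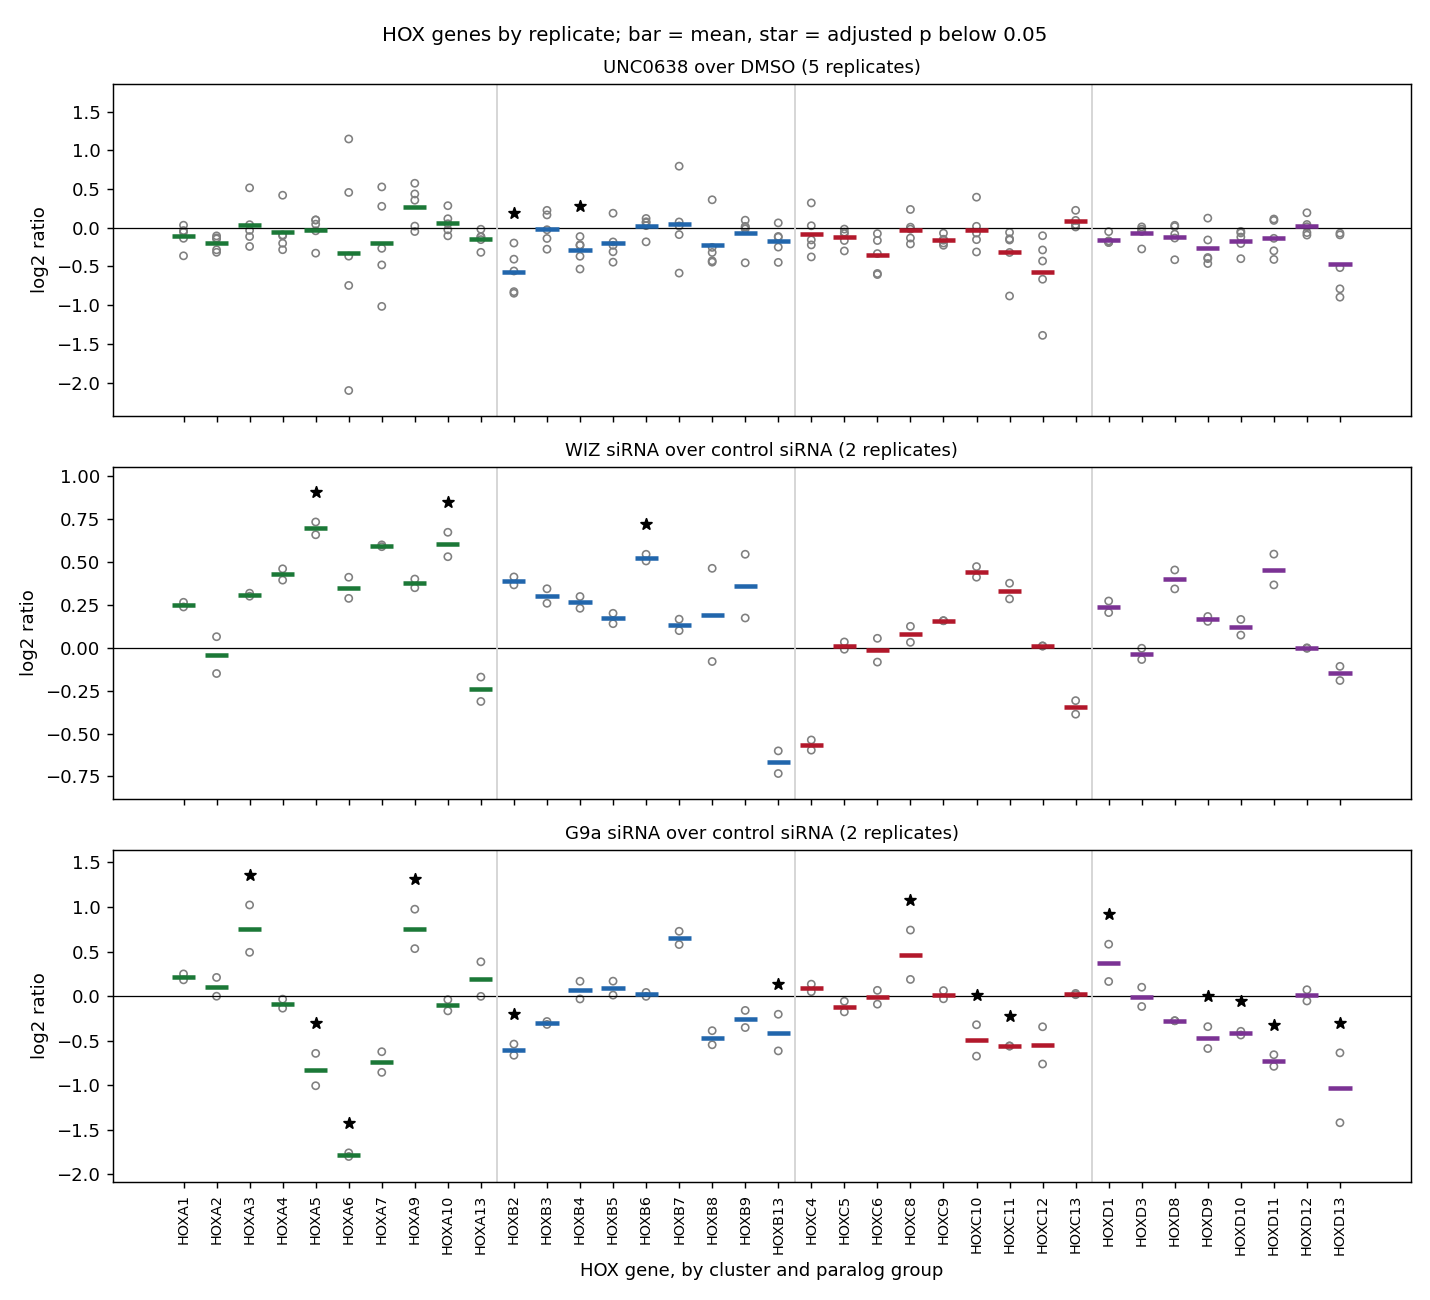
Log2 ratio of treated over control for the 36 measured HOX genes in each biological replicate, with genes in cluster and paralog order. WIZ siRNA replicates were mostly above 0 in the A and B clusters, and the lowest values were those of HOXA6, at -2.10 in UNC0638 replicate 3 and -1.80 and -1.76 in the G9a siRNA replicates.

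UNC0638 lowered 2 HOX genes, both in the B cluster, and raised none by limma's test. The background over all features was 1.74% called higher and 1.91% called lower, against 2 of 36 HOX genes called lower. At an unadjusted p below 0.05, 1 HOX gene was higher and 13 were lower, without a share over all features at that cut. HOXB2, which patterns the hindbrain and its facial motor neurons, had log2 ratios of -0.41, -0.20, -0.85, -0.56 and -0.82 in replicates 1 to 5. All 5 were below 0, with the 3 lowest on the set 2 arrays. The mean was -0.57 ± 0.28 (SD, n = 5; SE 0.091, limma adjusted p = 0.00906), or 67.5% of DMSO. The dye orientations differed for this gene: it had -0.84 and -0.64 with treated RNA in Cy5, and 0.02 and 0.24 with treated RNA in Cy3, in replicates 1 and 2. A second HOXB2 probe had a mean of -0.29 in a fit of every probe (limma adjusted p = 0.0836). HOXB4, a regulator of blood stem cell growth, had -0.22, -0.37, -0.23, -0.11 and -0.53. Again all 5 replicates were below 0, with a mean of -0.29 ± 0.16 (SD, n = 5; SE 0.065, limma adjusted p = 0.0403). HOXB2 stayed called when any 1 of the 9 replicates was left out, and HOXB4 in none of these fits. Without replicate 3 the genes called lower were HOXB2 and HOXC6. With the set of arrays as a block 1 HOX gene was called, against 4 in set 1 alone and 1 in set 2 alone.

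No other HOX gene was called under UNC0638. Among the A genes, HOXA9, which acts in blood stem cells and is overproduced in leukaemias, had the highest mean (0.27 ± 0.27, SD, n = 5, limma adjusted p = 0.176) and HOXA6, a gene of the mid-cluster, the lowest (-0.32 ± 1.24, SD, limma adjusted p = 0.649). The HOXA6 replicates lay far apart, at -0.37, 0.46, -2.10, -0.74 and 1.15. The A cluster's median was -0.08, with no call by limma and 2 genes at an unadjusted p below 0.05. In the B cluster HOXB7, a trunk gene, was highest at 0.04, and the cluster's median was -0.17. In the C cluster HOXC13, which acts in hair and nails, had 0.08, and HOXC12, from the posterior end of that cluster, had -0.57 ± 0.50 (SD, n = 5, limma adjusted p = 0.0856). HOXC6, a gene of the thoracic region, had -0.35 and an adjusted p of 0.052 by limma, just outside the threshold. In the D cluster HOXD12 was highest (0.02) and HOXD13, which shapes the digits, lowest (-0.47, limma adjusted p = 0.115). HOXD13 was between -0.13 and 0.00 on the 4 arrays of replicates 1 and 2, and at -0.90, -0.79 and -0.52 in replicates 3 to 5, so that the 2 sets of arrays did not overlap. The medians of C and D were -0.12 and -0.14, with no call by limma and 5 and 4 genes at an unadjusted p below 0.05. By position the medians lay close together, -0.11 for paralog groups 1 to 3 (called anterior here), -0.12 for groups 4 to 8 (central) and -0.15 for groups 9 to 13 (posterior).

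WIZ siRNA raised 3 HOX genes, 2 in the A cluster and 1 in B, and lowered none by limma's test. The background over all features was 0.077% called higher and 0.539% called lower, against 3 of 36 HOX genes called higher. At an unadjusted p below 0.05, 15 HOX genes were higher and 4 were lower, without a share over all features at that cut. HOXA5, which patterns the lung and the neck skeleton, had 1.18 and 1.07 in replicates 1 and 2 with treated RNA in Cy3 and 0.29 and 0.25 with treated RNA in Cy5. All 4 arrays were above 0. The mean was 0.70 ± 0.05 (SD, n = 2; SE 0.12, limma adjusted p = 0.0396), or 162% of control siRNA. HOXA10, needed for the uterus, had 1.23 and 1.03 where Cy3 labelled the treated RNA, but 0.11 and 0.03 where Cy5 did. Nearly all of its mean of 0.60 ± 0.10 (SD, n = 2; SE 0.097, limma adjusted p = 0.031) thus came from 1 orientation. A second HOXA10 probe had 0.62 and 0.42 in Cy3 and -0.06 and -0.06 in Cy5, and was not called (mean 0.23, limma adjusted p = 1.00 in a fit of every probe). With the mean of both probes as the gene's value the call was lost (0.42, limma adjusted p = 1.00). HOXB6, a trunk gene also active in red cell precursors, ran the other way, with 0.29 and 0.29 in Cy3 and 0.80 and 0.73 in Cy5. Its mean was 0.53 ± 0.03 (SD, n = 2; SE 0.083, limma adjusted p = 0.0277), or 144% of control siRNA. The SD covers only the 2 replicate means, each of which averages both orientations. Without UNC0638 replicate 3, which shares the fit's estimate of spread, the calls were 4 higher and 2 lower: HOXD8 joined the higher genes, and HOXB13 and HOXC13 the lower. There were 5 calls without UNC0638 replicate 5, 1 without UNC0638 replicate 1, 2 or 4, and 0 without either replicate of WIZ siRNA or of G9a siRNA (limma; 7 to 18 genes at an unadjusted p below 0.05). In set 1 alone, which holds all WIZ siRNA arrays, 20 were called, without a share over all features for that fit.

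**Figure D2:**
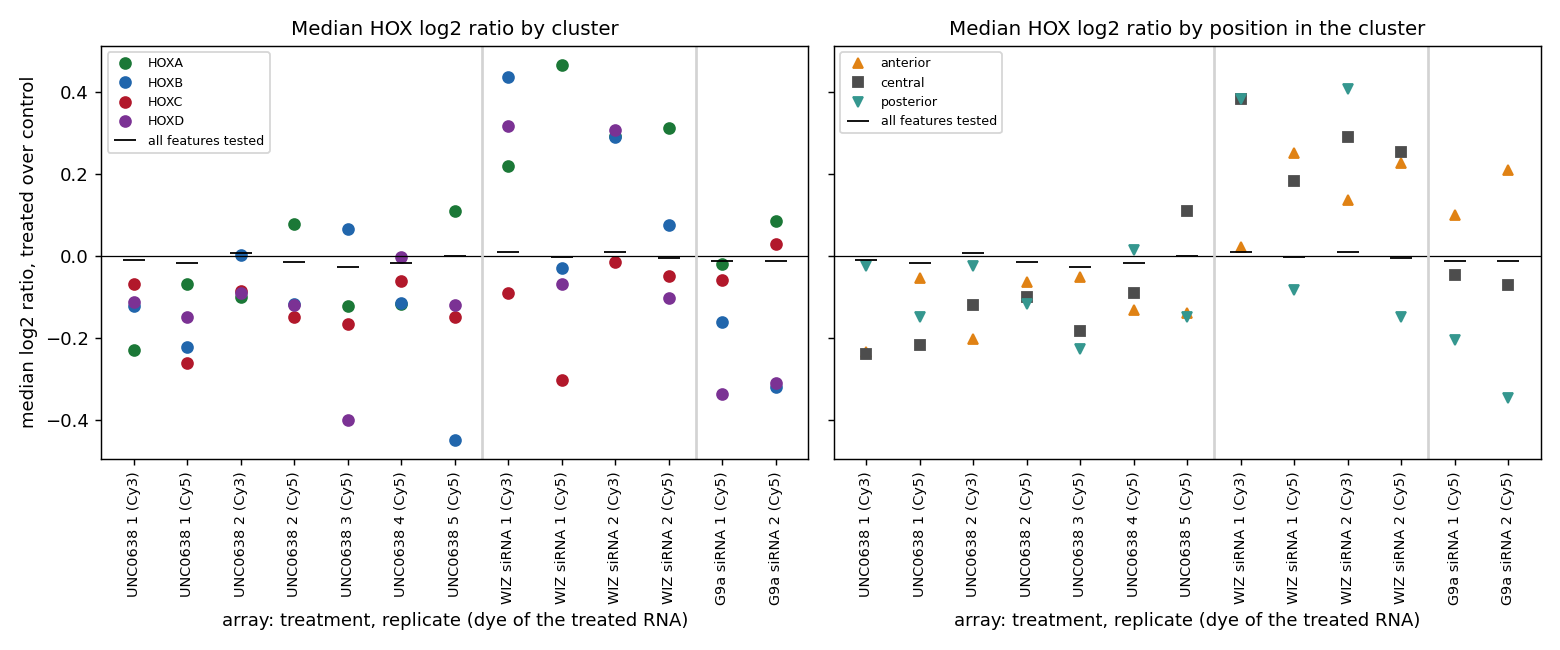
Median log2 ratio of treated over control of the HOX genes of each cluster on each array, with the dye that held the treated RNA marked. On WIZ siRNA arrays the A cluster was above 0 in both orientations, while the D cluster was near 0.3 with treated RNA in Cy3 and at or below -0.07 in Cy5.

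The clusters were not alike under WIZ siRNA. The A cluster had the highest median, 0.36, with 8 of 10 genes above 0, and B followed with 0.27. The D cluster's median was 0.14 and that of C 0.01, and neither held a call by limma (3 genes in D and 4 in C at an unadjusted p below 0.05). In A the range ran from HOXA13, which forms the digits and genital tract, at -0.24 to HOXA5, and the 4 central A genes were all above 0 with a median of 0.51. In B it ran from HOXB13, a gene of the prostate and tail end, to HOXB6. HOXB13 had -0.93 and -0.76 in Cy3 and -0.54 and -0.44 in Cy5, below 0 on every WIZ siRNA array. Its mean of -0.67 was the lowest of all HOX genes but was not called (limma adjusted p = 0.0631). In C the lowest was HOXC4 (-0.57, adjusted p = 0.159 by limma) and the highest HOXC10, a gene of lumbar motor neurons (0.44, limma adjusted p = 0.377). In D the lowest was HOXD13 (-0.15) and the highest HOXD11, which acts with HOXA11 in the forearm and kidney (0.46, limma adjusted p = 0.246). By position the medians of the gene means were 0.25 for anterior, 0.23 for central and 0.16 for posterior genes. The posterior median changed sign with the dye. It was 0.38 and 0.41 in replicates 1 and 2 where Cy3 labelled the treated RNA, but -0.08 and -0.15 where Cy5 did. The anterior median was 0.02 and 0.14 under Cy3 labelling, against 0.25 and 0.23 under Cy5 labelling. The central median was above 0 on every WIZ siRNA array (0.18 to 0.38).

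Both dye orientations of the WIZ siRNA arrays gave a positive HOX median, but the size differed. With treated RNA in Cy3 it was 0.37 and 0.29 in replicates 1 and 2, with 25 of 36 genes above 0 on both arrays. With treated RNA in Cy5 it was 0.07 and 0.10, with 19 and 21 of 36 above 0. Gene by gene, 12 were positive on all 4 arrays, 8 of them in the A cluster, 3 in B and 1 in D. HOXB13, HOXC4, HOXC13 and HOXD13 were negative on all 4, and the other 20 were mixed. For 19 genes the mean of 1 orientation was above 0 and that of the other below, 2 in A, 4 in B, 7 in C and 6 in D. By the probe used for each gene, the sign therefore depended on the dye for most of C and D and for few genes of A. HOXA9, HOXA10 and HOXB2 were positive on all 4 arrays by that probe, but their second probes were positive in Cy3 and negative in Cy5.

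The largest gaps between orientations were in posterior genes. HOXC11, a hindlimb gene, averaged 0.99 with treated RNA in Cy3 and -0.33 in Cy5. HOXC10 averaged 1.10 in Cy3 and -0.21 in Cy5. HOXD11 averaged 1.02 in Cy3 and -0.11 in Cy5. HOXA10 followed, with a Cy5 minus Cy3 gap of -1.06, and HOXA13 had the opposite pattern, -0.70 in Cy3 and 0.22 in Cy5. In paralog group 13 the means were thus below 0 in both orientations for HOXB13, HOXC13 and HOXD13 and in Cy3 for HOXA13. The median gap over the HOX genes was -0.10 under WIZ siRNA, with 0.23 in A, -0.34 in B, -0.14 in C and -0.32 in D. Under UNC0638 the same gap was 0.04 over all HOX genes, with 0.11, 0.02, -0.20 and -0.02 in A to D. Over all features, opposite orientations of the same WIZ siRNA replicate had correlations of -0.483 and -0.356, against 0.041 and 0.039 under UNC0638. Over the 36 HOX genes these were -0.079 and 0.031 for WIZ siRNA. EHMT2 was 1.23 and 0.73 on the WIZ siRNA arrays in Cy3 but -0.56 and -0.17 in Cy5.

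**Figure D3:**
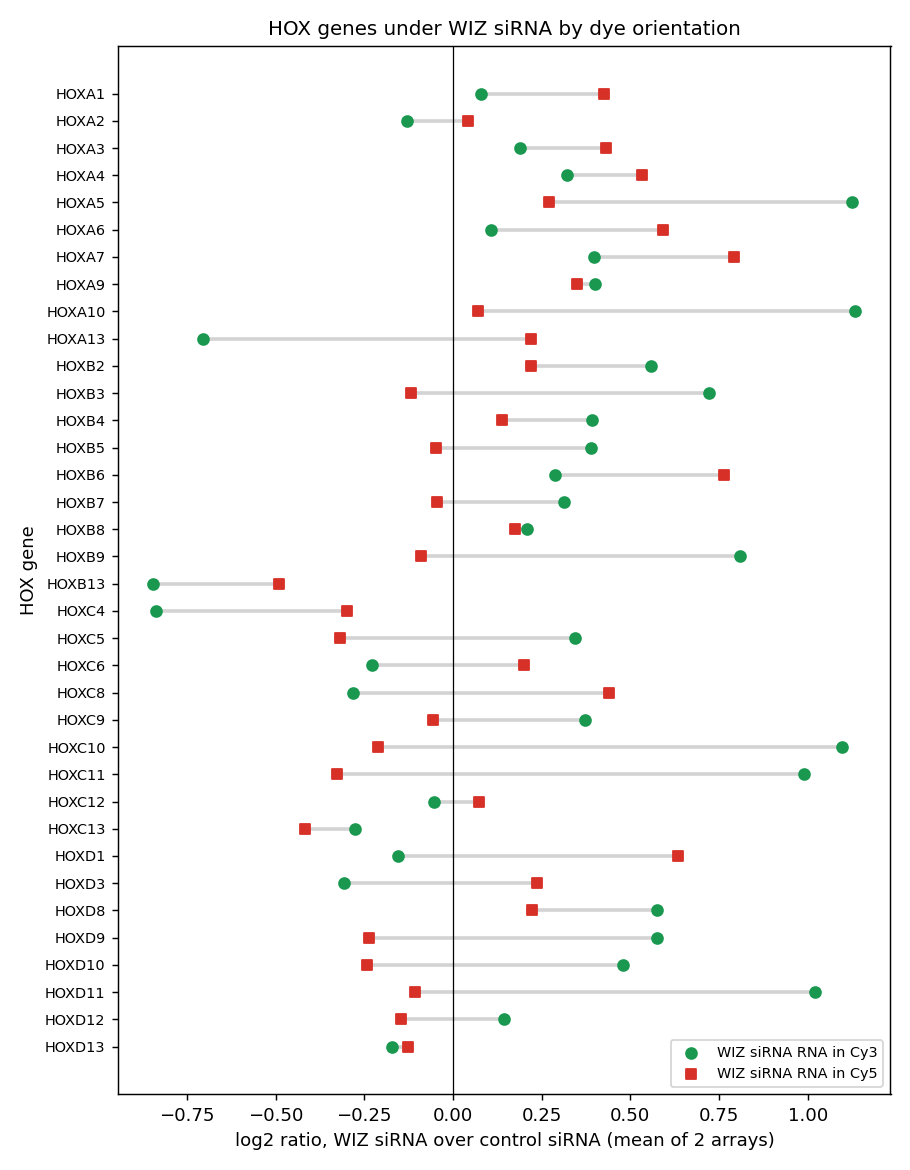
Mean log2 ratio of each HOX gene under WIZ siRNA with treated RNA in Cy5 and with treated RNA in Cy3. Genes whose values lie apart differ between orientations, and the A cluster genes lie mostly above 0 in both.

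G9a siRNA moved the most HOX genes, 4 higher and 10 lower. The background was large here, with 15.2% of all features called higher and 18.4% called lower, so that 4 of 36 is below its share and 10 of 36 above. At an unadjusted p below 0.05, 6 were higher and 14 lower, without a share over all features at that cut. With each array centred on its median in place of loess, the calls were 2 higher and 13 lower, 12 of them among the 14. After removal of a trend with probe GC content, possible for 30 of the 36 genes, they were also 2 higher and 13 lower, 10 of them among the 14. All 5 arrays of set 2, the G9a siRNA arrays among them, carried the treated RNA in Cy5, so dye, set and treatment cannot be told apart for these values. The groups of 2 replicates leaned on the UNC0638 replicates for their spread. Without G9a siRNA replicate 2 no HOX gene was called by limma (6 at an unadjusted p below 0.05), and without G9a siRNA replicate 1 the count was 8. Without UNC0638 replicate 3 there were 19, with HOXA7, HOXB7, HOXB8, HOXC12 and HOXD8 in addition to all 14. With the dye effect of each probe, estimated from the dye-swapped replicates, subtracted, 10 HOX genes were called, 8 of them among the 14. HOXC8, HOXC10, HOXC11, HOXD1, HOXD9 and HOXD10 were then not called (limma adjusted p from 0.191 to 0.489). In set 2 alone 7 were called (2 higher, 5 lower), and with the set as a block 5 (1 higher, 4 lower).

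Of the 4 genes that rose, 2 were anterior, 1 central and 1 posterior. HOXA3, which forms the thymus and parathyroid, had 0.49 and 1.02 in replicates 1 and 2. Its mean was 0.76 ± 0.38 (SD, n = 2; SE 0.17, limma adjusted p = 0.00911), or 169% of control siRNA. HOXA9 had 0.53 and 0.98, with a mean of 0.75 ± 0.31 (SD, n = 2, limma adjusted p = 0.00655). Replicate 2 had the larger value for both genes. HOXC8, which sets the identity of brachial motor neurons in the mouse, had 0.19 and 0.74 (mean 0.46, limma adjusted p = 0.0265). HOXD1, a gene of pain-sensing neurons in the mouse, had 0.16 and 0.58 (mean 0.37, limma adjusted p = 0.0161). All 4 were above 0 in both replicates, and higher in replicate 2. HOXB7 had 0.73 and 0.58 but was not called (limma adjusted p = 0.0613).

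By size of the mean, the genes that fell were led by the centre of the A cluster and the posterior end of D. HOXA6 had -1.80 and -1.76 in replicates 1 and 2, with a mean of -1.78 ± 0.03 (SD, n = 2; SE 0.57, limma adjusted p = 0.0392), or 29.1% of control siRNA. The replicates lay close together, and the SE is that of the shared fit, in which UNC0638 values of HOXA6 spread widely. The HOXA6 call held in 12 of 22 alternative fits. It was lost with the authors' log2 ratio, their value table, set 2 alone or the set as a block. It was also lost without UNC0638 replicate 1 or 4. HOXA5 had -0.64 and -1.01, with a mean of -0.82 ± 0.26 (SD, n = 2; SE 0.12, limma adjusted p = 0.00289), or 56.5% of control siRNA. HOXA7, their neighbour, had -0.62 and -0.86 without being called (limma adjusted p = 0.0798). The 4 central A genes were all below 0, with a median of -0.78, where they were all above 0 under WIZ siRNA.

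In the D cluster 4 of the 5 posterior genes fell, and 2 of them, HOXD11 and HOXD13, with the dye effect subtracted. HOXD13 had -0.64 and -1.42, with a mean of -1.03 ± 0.55 (SD, n = 2; SE 0.23, limma adjusted p = 0.00836), or 49% of control siRNA. HOXD11 had -0.66 and -0.79 (mean -0.72, limma adjusted p = 0.00406). HOXD10, which acts in lumbar motor neurons, had -0.40 and -0.44 (mean -0.42, limma adjusted p = 0.00823), and HOXD9, its limb and trunk neighbour, had -0.59 and -0.34 (mean -0.47, limma adjusted p = 0.0247). All were below 0 in both replicates. HOXD12 was below background in both RNAs on these arrays, so no fold is given. A probe inside the cluster without a gene symbol, A_24_P178148 at chr2:176993495-176993554, also fell (-0.70, limma adjusted p = 0.00977).

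In the B and C clusters, HOXB2 had -0.66 and -0.54 under G9a siRNA (mean -0.60, limma adjusted p = 0.0116) and HOXB13 -0.20 and -0.62 (mean -0.41, limma adjusted p = 0.0347). HOXC10 had -0.32 and -0.67 (mean -0.50, limma adjusted p = 0.0291). HOXC11 was not well above background in the treated RNA on either array and was so in the control RNA on both, which makes it at least 1.41-fold lower (limma adjusted p = 0.028; measured log2 levels 7.54 in treated and 8.10 in control RNA). Such bounds come from normalized channel values, which dye bias can reach. HOXC12 had the same pattern, at least 1.46-fold lower, but was not called (limma adjusted p = 0.118). HOXC5 was below background in both RNAs. The cluster medians were 0.01 in A, -0.26 in B, -0.01 in C and -0.35 in D. By position they were 0.10 for the 7 anterior genes (2 higher, 1 lower), -0.05 for the 14 central genes (1 higher, 2 lower) and -0.41 for the 15 posterior genes (1 higher, 7 lower). Of the 7 posterior genes called lower, HOXB13, HOXD11 and HOXD13 stayed called with the dye effect subtracted. HOXC10, HOXC11, HOXD9 and HOXD10 did not, and position medians were not computed in that fit. The position differences are descriptions, since genes of a cluster are not replicates.

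A second probe of HOXA10 behaved unlike the first. The brighter probe, used for the gene, had -0.17 and -0.04 under G9a siRNA. The second probe had -3.37 and -4.21, with a mean of -3.79 in the fit of every probe (limma adjusted p = 0.00528 over 34143 probes). It had -3.66, -1.48 and -0.38 in UNC0638 replicates 3 to 5, and between -0.22 and 0.14 on the arrays of replicates 1 and 2. Its normalized log2 level in treated RNA was 10.9 to 14.6 on set 2 arrays and 11.5 to 12.7 on set 1 arrays. In control RNA it was 14.3 to 15.4 on set 2 and 11.5 to 12.7 on set 1, so that the 2 sets did not overlap in control RNA. The probe has no coordinates in the file, and what it measures on set 2 was not tested. EVX1, the homeobox gene beside the A cluster, had -2.75 and -3.61 under G9a siRNA and -3.48, -1.49 and -0.09 in UNC0638 replicates 3 to 5. EN2, a homeobox gene of the midbrain boundary, had -1.80 and -2.54, against -2.40, -1.10 and -0.47 in those replicates. HOXA6 had -2.10, -0.74 and 1.15 there. In all 4 probes UNC0638 replicate 3 was close to the G9a siRNA replicates and replicate 5 was the highest of the 3.

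**Figure D4:**
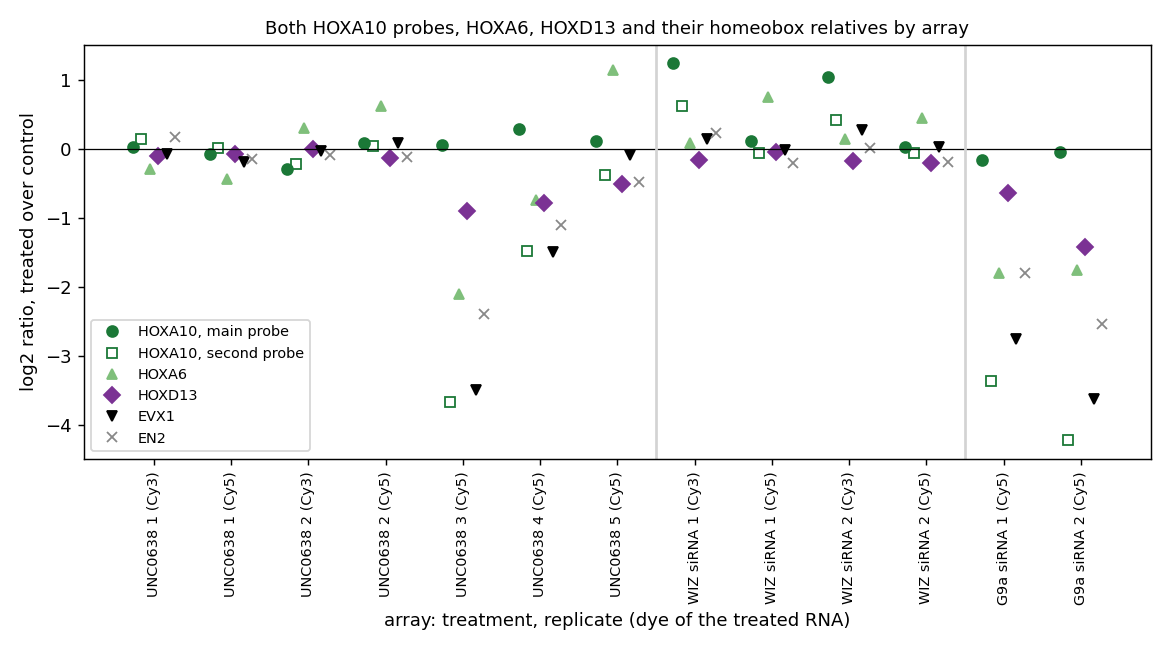
Log2 ratio of treated over control on each array for both HOXA10 probes, HOXA6, EVX1 and EN2. The second HOXA10 probe reaches -4.21 on a G9a siRNA array and -3.66 in UNC0638 replicate 3, while the first stays between -0.30 and 0.28 outside the WIZ siRNA arrays.

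The other genes with several probes were nearer to each other. The second HOXA9 probe had 0.26 under G9a siRNA (limma adjusted p = 0.159) where the first was called. Under WIZ siRNA it had 1.20 and 1.06 in Cy3 and -0.27 and -0.18 in Cy5, where the first was positive on all 4 arrays. The second HOXB2 probe had -0.44 (limma adjusted p = 0.0222) and the second HOXD9 probe -0.61 (limma adjusted p = 0.0135) under G9a siRNA, the direction of the first in both.

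Tested directly, treatments differed in 1 HOX gene between WIZ siRNA and UNC0638 and in 4 between G9a siRNA and UNC0638. These contrasts share the UNC0638 samples and also hold the difference in time (72 h and 48 h) and in control. The background over all features was 0.098% higher and 0.756% lower for WIZ siRNA minus UNC0638, and 6.17% higher and 6.69% lower for G9a siRNA minus UNC0638. HOXB2 was higher under WIZ siRNA, with a mean of 0.39 against -0.57 under UNC0638, a difference of 0.96 (SE 0.17, limma adjusted p = 0.0393). The second HOXB2 probe differed by 0.76 and was not called (limma adjusted p = 0.0601 in the fit of every probe), with 1.17 and 0.98 in Cy3 and -0.24 and -0.04 in Cy5 under WIZ siRNA. HOXA3 had 0.76 under G9a siRNA and 0.03 under UNC0638, a difference of 0.72 (SE 0.20, limma adjusted p = 0.0463). HOXD1 had 0.37 and -0.16, a difference of 0.53 (limma adjusted p = 0.0252). HOXA5 had -0.82 and -0.02, a difference of -0.80 (limma adjusted p = 0.0188). HOXD11 had -0.72 and -0.13, a difference of -0.60 (limma adjusted p = 0.037), G9a siRNA first in each pair. Without UNC0638 replicate 3 these counts were 2 for WIZ siRNA and 10 for G9a siRNA (4 higher, 6 lower). HOXB2 was lost from the first contrast without UNC0638 replicate 1, 4 or 5 or any siRNA replicate. The second fell to 1 call, HOXA5, without UNC0638 replicate 1, 2 or 4 or either WIZ siRNA replicate, and to 0 by limma without G9a siRNA replicate 2 (3 at an unadjusted p below 0.05). WIZ siRNA and G9a siRNA gave opposite signs for HOXA5, called in both, but lie in different sets of arrays, and that pair was not tested.

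Genes that regulate HOX genes or work with them were described from fixed lists. Of 9 HOX cofactors, the TALE homeobox proteins that bind DNA beside HOX proteins, PBX4 fell under UNC0638 (-0.40, limma adjusted p = 0.0106). Under G9a siRNA MEIS1 rose (0.38) and MEIS3 fell (-0.38). Of all features 1.91% were lower under UNC0638, and 15.2% were higher and 18.4% lower under G9a siRNA. Under WIZ siRNA none was called by limma, 1 had an unadjusted p below 0.05, and PBX2 had the largest value (-0.31, limma adjusted p = 0.732). The medians of the list were 0.00 under UNC0638, -0.15 under WIZ siRNA and 0.12 under G9a siRNA.

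Of 17 Polycomb genes, which keep HOX genes silent, none was called by limma under UNC0638 or WIZ siRNA, with 3 genes at an unadjusted p below 0.05 in both. The largest values there were those of BMI1 under UNC0638 (0.32, limma adjusted p = 0.198) and PHC1 under WIZ siRNA (-0.64, limma adjusted p = 0.0924). Under G9a siRNA 5 rose and 6 fell, against 15.2% and 18.4% of all features. Subunits of the complex that methylates histone H3 rose, with SUZ12 at 1.03, EZH2 at 0.39 and EED at 0.28. Of the ubiquitin ligase complexes, BMI1 (1.09) and RNF2 (0.50) rose, and RING1 (-0.90), CBX6 (-0.43), CBX7 (-0.43), CBX8 (-0.51) and PHC2 (-0.52) were among those that fell. The list's median under G9a siRNA was 0.02, so no direction held for the whole.

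Of 12 trithorax genes and activators, which keep HOX genes active, 1 rose and 4 fell under G9a siRNA, where 15.2% of all features were higher and 18.4% lower. KDM6A, a histone demethylase, rose (0.54). DOT1L, a histone H3 methyltransferase that acts on HOX genes in leukaemia, fell by 1.16 on the log2 scale, MEN1, a partner of the KMT2 methyltransferases, by 0.90, KMT2B by 0.70 and WDR5 by 0.46. None was called by limma under UNC0638 or WIZ siRNA, where 4 and 2 had an unadjusted p below 0.05. KMT2D had the largest value under UNC0638 (-0.27, limma adjusted p = 0.136) and KDM6B under WIZ siRNA (0.26, limma adjusted p = 0.582). Of 11 measured CDX and retinoid genes, which act upstream of HOX genes in the embryo, CDX2 (-0.21), an activator, RARG (-0.25), a retinoic acid receptor, and CYP26A1 (-0.29), which degrades retinoic acid, fell under UNC0638. RARG (-0.41), RXRA (-0.83) and CYP26A1 (-0.34) fell under G9a siRNA. These were 3 of 11 under each treatment, where 1.91% of all features were lower under UNC0638 and 18.4% under G9a siRNA. None was called by limma under WIZ siRNA, 3 had an unadjusted p below 0.05, and CRABP2 had the largest value (-0.34, limma adjusted p = 0.172). The list medians were -0.13 under UNC0638, -0.04 under WIZ siRNA and -0.10 under G9a siRNA.

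Of 13 measured homeobox genes outside the clusters, 4 were called lower under UNC0638, and 6 lower and 1 higher under G9a siRNA. Of all features 1.91% were lower under UNC0638, and 18.4% lower and 15.2% higher under G9a siRNA. MEOX1 (-0.36), GBX2 (-0.35), MNX1 (-0.45) and DLX5 (-0.43) fell under UNC0638, and EVX1 had the largest value without a call (-1.03, limma adjusted p = 0.232). Under G9a siRNA EVX1 (-3.18), EN2 (-2.17), MNX1 (-0.79), GBX2 (-0.57), GBX1 (-0.53) and EN1 (-0.44) fell and DLX6 rose (0.55). Under WIZ siRNA none was called by limma, none had an unadjusted p below 0.05, and DLX2 had the largest value (-0.15). The list medians were -0.30 under UNC0638, -0.01 under WIZ siRNA and -0.40 under G9a siRNA, against HOX medians of -0.13, 0.22 and -0.09.

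Of 4 noncoding RNAs of the clusters on the array, HOXA11-AS fell under UNC0638 (-0.41, limma adjusted p = 0.0208) and HAGLR, a D cluster transcript, rose under G9a siRNA (0.51, limma adjusted p = 0.00748). HOXA11-AS had -0.21 under WIZ siRNA (limma adjusted p = 0.820), and HOTAIR, the C cluster RNA, 0.30 under G9a siRNA (limma adjusted p = 0.113). Of 19 genes flanking the clusters, none was called by limma under UNC0638 or WIZ siRNA, where 5 and 1 had an unadjusted p below 0.05. HIBADH had the largest value under WIZ siRNA (-0.45, limma adjusted p = 0.600). Under G9a siRNA 7 rose and 4 fell, against 15.2% and 18.4% of all features. Beside the C cluster SMUG1, a DNA repair gene, fell by 1.18 on the log2 scale, ATP5MC2, a subunit of the mitochondrial ATP synthase, by 0.58 and CALCOCO1 by 0.45, while CBX5, a heterochromatin protein, and HNRNPA1, a splicing factor, had 0.67 and 0.59. Beside the B cluster CBX1, another heterochromatin protein, rose (0.60), with CALCOCO2 at 0.50 and SKAP1 at 0.27. LNPK and MTX2 beside the D cluster rose, with 0.77 and 0.60, where 4 of the posterior D genes fell. Of the line markers LHX1 fell under UNC0638 (-0.53) and G9a siRNA (-0.55) and KRT18, an epithelial keratin, under G9a siRNA (-0.50), while PAX2, a kidney regulator, had the largest value under WIZ siRNA (-0.42, limma adjusted p = 0.173). Of the markers of other cell types COL3A1, of fibroblasts, rose under UNC0638 (0.25) and APOA1, of liver, fell under G9a siRNA (-0.76). Over all features 1.74% were higher and 1.91% lower under UNC0638.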

How the data were processed

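The deposited intensities are uncorrected, with a mean for the spot and a median for its background in each dye, per the file headers. The authors' log2 ratio of the channels stands beside them, and a table of the series holds the authors' log10 ratios. Set against the array files (n = 24970 to 29588 probes), that table ran control over treated on 8 arrays (r -0.877 to -0.918) and treated over control on 5 (r 0.925 to 0.971), and was turned accordingly. Its column medians were 0, -0.00301, 0.00794 and 0.00818 for UNC0638 replicates 1 and 2 with treated RNA in Cy3 and then in Cy5, -0.00413, -0.01, 0 and 0.0032 for WIZ siRNA likewise, then 0.00178 and -0.00027 for G9a siRNA, and for UNC0638 replicates 3 to 5 -0.00359, -0.00609 and -0.00882. Its centring and filters, and slide and scan, are not given in the sources used here.

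Here intensities were corrected with normexp (offset 50) over 62976 spots and normalised within each array by loess, in which 4259 control spots had no weight (R 4.3.3, limma 3.58.1). Ratios were turned to treated over control by the dye labels, spots averaged to 42405 probes, and dye-swapped arrays averaged to 9 biological replicates. Probes were kept where the signal exceeded the background median by 2.6 background SDs on at least 50% of arrays of 1 of the 6 RNA groups, and the brightest of the 34143 kept probes stood for its gene. Of the probes 25422 were named by RefSeq accession and 1544 by symbol, and 1625 kept the file's own symbol. One limma fit held a mean per treatment (6 residual and 3.37 prior degrees of freedom), checked on simulated data, so the siRNA groups borrow their spread largely from UNC0638. The number of arrays limits the precision. A background set, read from the files, took the place of the slide as batch.

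HOX members and lists were chosen with earlier results of these data known. Named are all called HOX genes, the highest and lowest of each cluster and treatment, the 5 largest dye gaps under WIZ siRNA, genes that failed the filter, and in each list the called genes and the largest value, of which a few are not reported here. Alternatives covered the authors' ratios, centring, filters, probes, dyes, GC content, sets, array weights, a replicate block and single replicates left out. Taking every probe as its own feature was chosen after seeing the data.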

Additional observations from a re-analysis of the deposited data

Results flagged for a closer look

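Among the 36 HOX genes, 5 had 1 UNC0638 replicate far from the other 4 by Dixon's test, where chance gives about 1 in 20. HOXA4 had 0.42 in replicate 5, against -0.28 to -0.09 in the others. HOXB8 had 0.36 in replicate 3, against -0.44 to -0.25. HOXB9 had -0.45 in replicate 5, against -0.02 to 0.10. HOXD1 had -0.050 in replicate 3, against -0.19 to -0.17, and HOXD3 had -0.27 in replicate 1, against -0.05 to 0.01. Of these only HOXD1 was called in any comparison.

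In 5 HOX genes the effect of a treatment differed from that of UNC0638 by the test of the difference itself (limma). HOXB2 was 0.96 higher under WIZ siRNA than under UNC0638 on the log2 scale. Under G9a siRNA HOXA3 differed from UNC0638 by 0.72, HOXD1 by 0.53, HOXA5 by -0.80 and HOXD11 by -0.60. These are 2 higher and 2 lower of 36, where 6.17% of all features were higher and 6.69% lower, so the count lies near the background.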

How the results depend on the processing

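By limma, HOX calls under UNC0638 (2) became 1 with the authors' log2 ratio, their value table, median centring, the set as a block or set 2 alone, 4 with Cy3 alone or set 1 alone, 5 with the dye effect subtracted, 6 with Cy5 alone and 0 with its own replicates alone (13 at an unadjusted p below 0.05), and 1 to 2 without 1 replicate. Under WIZ siRNA (3) they became 0 with the authors' log2 ratio, their table or median centring (10 to 15 unadjusted), 5 with Cy5 alone, 20 with set 1 alone, 23 with array weights, 26 with Cy3 alone or own replicates alone, and 0 to 6 without 1 replicate. Under G9a siRNA (14) they became 5 with the set as a block, 7 with set 2 alone and 0 to 19 without 1 replicate. For WIZ siRNA minus UNC0638 (1) they became 0 with the authors' ratio or table, median centring or the set block (13 to 16 unadjusted), 2 with the dye effect subtracted, 3 with Cy5 alone, 5 with the GC trend removed, 17 with set 1 alone, 19 with Cy3 alone, 21 with array weights and 0 to 2 without 1 replicate. For G9a siRNA minus UNC0638 (4) they became 2 with the authors' ratio or table, 1 with the dye effect subtracted or the set block, 0 with set 2 alone (7 unadjusted), 11 with array weights and 0 to 10 without 1 replicate. The HOX median under WIZ siRNA (0.22) was 0.22 with the authors' log2 ratio, 0.16 with their table, 0.18 with median centring, 0.17 without a filter, 0.24 with a stricter one, 0.073 with Cy5 alone, 0.32 with Cy3 alone, 0.23 with the GC trend removed, 0.19 with the set block and 0.20 to 0.22 without 1 replicate. Under G9a siRNA (-0.09) it was 0 with their table, -0.19 with median centring, -0.032 without a filter, -0.14 with the dye effect subtracted, -0.18 with the GC trend removed, -0.17 with the set block and -0.13 to -0.07 without 1 replicate. HOXB2 under UNC0638 turned to 0.13 with Cy3 alone. The cause was not tested. The GC trend could be removed for 30 of the 36 genes (83.3%). Shares over all features are given for the main fit alone, so the counts of the other fits stand without a background.

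Deviations from the treatment mean had correlations of -0.29 to 0.37 between samples with the same replicate number. In a group of 2 replicates these deviations mirror each other, so the check could not decide whether the numbers pair samples. With the replicate block the calls were 14 under UNC0638, 9 under WIZ siRNA, 20 under G9a siRNA, 10 for WIZ siRNA minus UNC0638 and 18 for G9a siRNA minus UNC0638, and the medians 0.18 under WIZ siRNA and -0.056 under G9a siRNA. HOXC5, HOXC11, HOXC12 and HOXD12 lay near background under G9a siRNA, which limits their folds.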
